A study of Mus musculus with 63 samples.

Results

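The genes that encode the translation initiation and elongation factors of the mouse were followed through 63 RNA-seq libraries of cultured hippocampus. A gene was a member when its symbol began with Eif or Eef and a digit and its gene was annotated as protein coding. The Y-linked copy of Eif2s3 was left out. Of 85 symbols with that form, 14 were not protein coding, and 70 members remained among the 55291 symbols counted. Of the 70 members, 66 had counts in all 63 libraries and were tested in all 20 comparisons. Eif4a3l1 and Eif4a3l2, close relatives of Eif4a3, passed the filter on low counts in some comparisons, and Eif4e1b and Eif4ebp3 passed it in none.

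The libraries came from organotypic entorhino-hippocampal tissue cultures of wild-type C57BL/6J mice (Synpo+/+) and of mice without synaptopodin (Synpo-/-, B6.129-Synpo tm1Mndl/Dllr, back-crossed to C57BL/6J), of either sex, prepared at postnatal days 3 to 5 and kept for at least 18 days in vitro. Synaptopodin is an actin-binding protein of the spine apparatus in dendritic spines. In the lesioned cultures the perforant path was cut with a scalpel (entorhinal cortex lesion, ECL), which removes the entorhinal input of the hippocampus, and RNA of the regional libraries was taken 3 days later. Regional libraries each held 1 dentate gyrus (DG) or 1 CA3 area: Synpo+/+ CA3 had 2 non-lesioned and 3 lesioned libraries, Synpo+/+ DG 4 and 7, Synpo-/- CA3 6 and 6, and Synpo-/- DG 7 and 4. The second experiment sequenced RNA that came down with an antibody against synaptopodin (co-immunoprecipitation, coIP) beside the input lysate, with several pooled cultures per sample. It had 5 coIP and 5 input libraries from non-lesioned Synpo+/+ cultures, 5 and 5 from lesioned Synpo+/+ cultures, and 2 and 2 from Synpo-/- cultures whose lesion state was not given. For its lesioned cultures the time after the lesion was not given. The Synpo-/- coIP is the control for RNA that comes down without the target protein.

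Initiation factors bring the small ribosomal subunit, the initiator tRNA and the mRNA together. The eIF4 proteins bind the mRNA cap and unwind the 5′ end, eIF2 carries the initiator tRNA, eIF2B reloads eIF2 with GTP, and eIF3 is a large scaffold on the small subunit. Elongation factors then deliver aminoacyl-tRNAs (eEF1) and move the ribosome along the message (eEF2). The pathway is held back by kinases of the eIF2 alpha subunit and by 4E-BP proteins that occupy the cap-binding eIF4E. In neurons translation in dendrites and its control are widely studied in connection with synaptic plasticity. By role the members were 12 factors of start-codon selection, 5 eIF2B subunits, 4 eIF2 alpha kinases, 14 eIF3 subunits, 12 eIF4 factors, 4 eIF4E-binding repressors, 8 elongation factors, 7 enzymes that modify elongation factors, and 4 others.

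Several members exist as pairs of paralogs, and 3 of these pairs are shown to give the number of bases by which reads can be told apart: in the non-lesioned Synpo+/+ coIP the Eef1a pair moved in opposite directions, and both genes of the Eif1 and Eif5a pairs fell. The lines give the first 60 coding bases of each gene from the GRCm38 genome, 5′ to 3′ on the coding strand, with capitals at the bases that differ within the pair.
Eef1a1, chr9:78480595-78480654 (-): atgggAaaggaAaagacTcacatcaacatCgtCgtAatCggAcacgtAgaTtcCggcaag
Eef1a2, chr2:181155347-181155406 (-): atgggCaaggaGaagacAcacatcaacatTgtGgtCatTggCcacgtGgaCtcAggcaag
Eif1, chr11:100320130-100320160 and 100320666-100320694 (+): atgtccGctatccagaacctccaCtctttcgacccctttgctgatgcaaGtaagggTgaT
Eif1b, chr9:120492811-120492841 and 120494107-120494135 (+): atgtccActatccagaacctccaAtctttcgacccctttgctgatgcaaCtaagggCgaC
Eif5a, chr11:69919256-69919315 (-): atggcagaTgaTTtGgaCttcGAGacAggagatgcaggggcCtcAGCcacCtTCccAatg
Eif5a2, chr3:28782052-28782111 (+): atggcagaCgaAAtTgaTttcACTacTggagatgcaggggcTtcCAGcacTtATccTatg
The stretch differed at 11 of 60 bases for Eef1a1 and Eef1a2, at 5 for Eif1 and Eif1b, and at 17 for Eif5a and Eif5a2. Over the whole coding sequence the identity was 80.6% for the Eef1a pair, 81.1% for the Eif1 pair and 73.4% for the Eif5a pair, and 78.1% for Eif4a1 and Eif4a2. Of all members, 25 had at least 1 genomic copy at 90% identity or more over 80% of the coding sequence, with 21 for Eif1 and 13 for Eef1a1, and 0 for Eef1a2, Eif1b and Eif5a2. Reads from those copies cannot be fully separated from the parent gene, and the counts of these members are uncertain to that degree. Eef1akmt4, Eef2kmt, Eif3d, Eif4ebp3 and Eif3j1, the last of which is also among the 25, shared over 20% of their exon bases with another gene, and the counting ignored strand.

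Total counts ran from 14055930 to 46043990 in the regional libraries and from 11601154 to 53682143 in the coIP and input libraries. Levels below are CPM (counts scaled to a common library total) with edgeR's TMM scaling, listed in ascending order within a group and set separately within the regional and within the coIP experiment, so levels are not compared across these experiments. Prox1, a marker of dentate granule cells, was at 172 to 219 CPM in 6 lesioned Synpo+/+ DG libraries and at 15.7 CPM in replicate 5 of that group, a level seen in CA3 (12.6 to 17.3 CPM in Synpo+/+), so counts of calls that rest on that group, and values of some of the members named, are also given without replicate 5. Paralog ratios and marker sums were not recomputed without it. Synpo counts per gene were higher, not lower, in non-lesioned Synpo-/- than in non-lesioned Synpo+/+ libraries, with no overlap, at 40.6 to 68.1 against 19.0 to 24.6 CPM in the DG and 29.7 to 48.8 against 24.6 to 25.5 CPM in CA3. They overlapped in the lesioned libraries and in the inputs. Counts per gene thus do not show a loss of the gene, whether the counted reads lie outside its altered part is not known here, and genotypes are those of the labels. In bulk tissue, fewer cells of a type and less RNA per cell cannot be told apart.

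The 70 members together took 0.805% to 1.11% of all counts in a library. Per kilobase of exon, Eef1a1, which delivers aminoacyl-tRNA to the ribosome, was highest in the non-lesioned Synpo+/+ inputs at 476 ± 37.6 CPM per kb (SD, n = 5). Eif5a, which helps the ribosome through difficult peptide bonds, followed at 278 ± 22.6 CPM per kb, and Eif1, a guard of start-codon choice, at 259.5 ± 27.2 CPM per kb. The levels of Eif5a and Eif1 did not differ beyond their spread. Per kilobase of coding sequence the order of these 3 genes was Eif1, Eif5a and Eef1a1, so their order depended on the length used. In non-lesioned Synpo+/+ CA3, Eef1a1 was again highest at 479 CPM per kb of exon, and Eif1, Eif1b and the helicase gene Eif4a2 followed at 150.5, 129 and 119 CPM per kb. Eef1a2, the neuronal and muscle paralog of Eef1a1, was far lower than it in every group. The per-length ratio of Eef1a1 to Eef1a2 in the non-lesioned Synpo+/+ inputs had a lowest value of 254, a median of 281 and a highest value of 329.6.

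The first question was which factor mRNAs were over- or under-represented in the synaptopodin coIP. Most members were lower in the coIP than in the input, and a smaller group, with longer coding sequences in the median, was higher. In non-lesioned Synpo+/+ cultures, the quasi-likelihood test of edgeR, adjusted as Benjamini and Hochberg (called at an adjusted p under 0.05 over all genes tested) found 15 of 66 members higher and 38 lower, where 55% of all genes tested were called in either direction. In lesioned Synpo+/+ cultures 13 were higher and 41 lower, against 58.3% of all genes called. In Synpo-/- cultures 12 were higher and 28 lower, against 31.4%. The median log2 fold change of the members (coIP over input) was -0.49, -0.63 and -0.33 in these 3 comparisons, and the median over all genes tested was 0.04, 0.02 and 0.02. The share of members called was thus above the share of all genes in each comparison. By direction, 29.6%, 30.5% and 15% of all genes were called higher and 25.5%, 27.8% and 16.4% lower. The share of members called higher was below that of all genes in both Synpo+/+ comparisons and slightly above it in Synpo-/- cultures. The share called lower was above that of all genes in each.

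**Figure D1:**
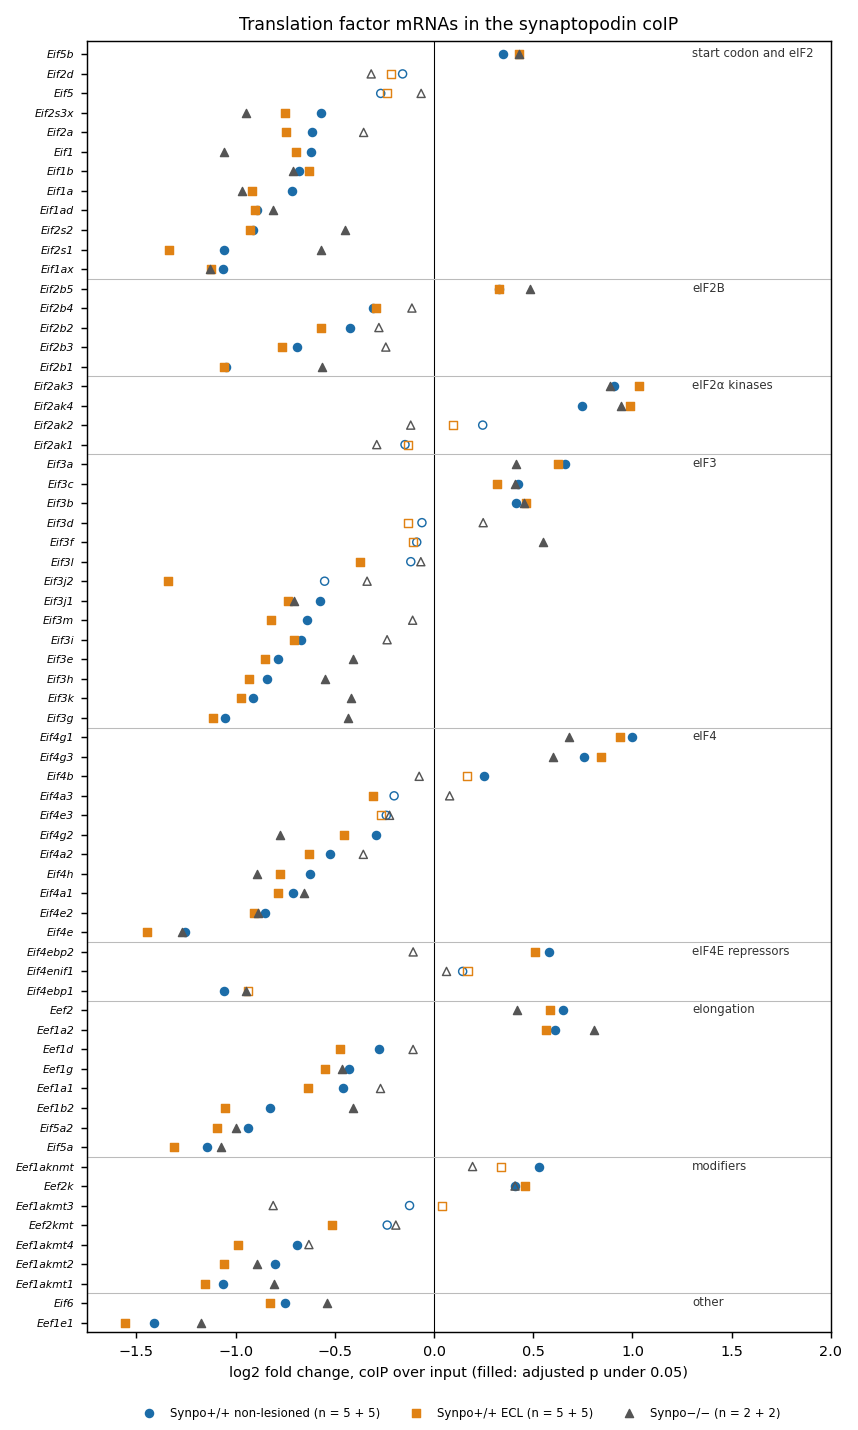
Log2 fold change of coIP over input (x axis) for each of the 66 tested members (rows, ordered by role) in non-lesioned Synpo+/+, lesioned Synpo+/+ and Synpo-/- cultures; filled points passed an adjusted p of 0.05. Eif4g1, Eif4g3, Eif2ak3 and Eif2ak4 lie to the right in all 3 culture types, and Eif4e, Eif5a, Eif1ax and Eef1e1 to the left.

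Within the cap-binding complex the subunits moved in opposite directions. Eif4g1 encodes the scaffold that joins the cap-binding protein to the helicase and to eIF3. It stood at 63.9, 77.0, 80.1, 81.7 and 91.4 CPM in the 5 non-lesioned Synpo+/+ inputs and at 123, 143, 154, 172 and 173 CPM in the 5 coIPs (adjusted p = 6.41e-06, log2 fold change 1.00 with SE 0.12). In the Synpo-/- libraries it was at 73.6 and 78.1 CPM in the inputs and 116 and 122 CPM in the coIPs (adjusted p = 0.00233, log2 fold change 0.68 with SE 0.13). The coIP values lay above the input values without overlap in both genotypes. Eif4e, which encodes the cap-binding protein itself, went the other way, from 461, 462, 506, 507 and 669.5 CPM in the inputs to 157, 183, 215, 248 and 251 CPM in the coIPs (adjusted p = 2.97e-06, log2 fold change -1.26 with SE 0.13). In Synpo-/- cultures Eif4e was at 435 and 461 CPM in the inputs and 164 and 199.7 CPM in the coIPs (adjusted p = 2.17e-04, log2 fold change -1.27 with SE 0.14). Every coIP library was below every input library of its group. Of the 11 eIF4 factors tested, 3 were higher and 6 lower in non-lesioned Synpo+/+ cultures: the second scaffold gene Eif4g3 rose with Eif4g1 (log2 fold change 0.76), and the helicase genes Eif4a1 and Eif4a2 were lower (-0.71 and -0.52), as was the cap-binding homolog Eif4e2 (-0.85). Eif4a2 was not called in Synpo-/- cultures (log2 fold change -0.36, adjusted p = 0.0616).

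The 4E-BP genes, whose products bind eIF4E and block cap-dependent initiation, split. Eif4ebp2, the 4E-BP known as the main one in brain, was at 23.3, 23.4, 26.3, 28.1 and 28.3 CPM in the non-lesioned Synpo+/+ inputs and 33.2, 35.8, 38.5, 38.6 and 41.3 CPM in the coIPs (adjusted p = 1.90e-04, log2 fold change 0.58 with SE 0.10). In lesioned Synpo+/+ cultures it was at 22.6, 25.9, 29.0, 30.8 and 34.1 CPM and 35.6, 36.5, 36.9, 42.0 and 43.4 CPM (adjusted p = 0.00216, log2 fold change 0.51 with SE 0.12). In neither set did coIP and input overlap. In Synpo-/- cultures the inputs were at 27.9 and 31.6 CPM and the coIPs at 24.6 and 29.5 CPM, which overlapped (adjusted p = 0.651, log2 fold change -0.11 with SE 0.16). The test of the difference between genotypes did not pass for Eif4ebp2 (adjusted p = 0.514, log2 fold change 0.64 with SE 0.19), so the enrichment is not shown to differ between them. Eif4ebp1 was lower in the non-lesioned Synpo+/+ coIP (adjusted p = 5.23e-04, log2 fold change -1.06 with SE 0.21) and in the Synpo-/- coIP (log2 fold change -0.95), and was not called in lesioned cultures (log2 fold change -0.94, adjusted p = 0.0875).

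**Figure D2:**
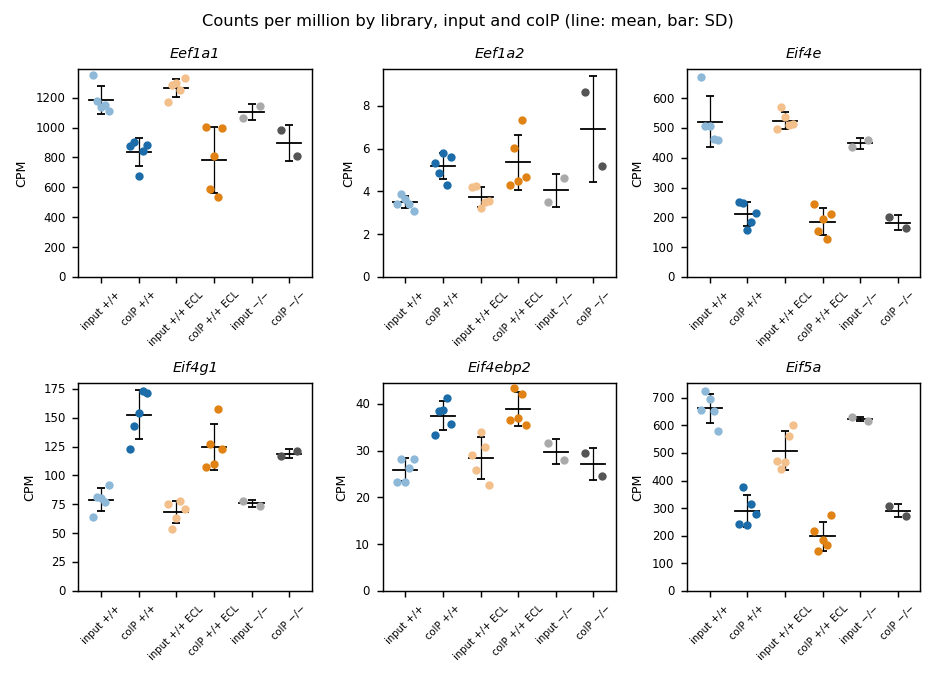
CPM (y axis) of 6 members in each input and coIP library of the 3 culture types; points are libraries, lines are group means and bars are SD. For Eif4g1 and Eif4e input and coIP libraries do not overlap in any culture type, and for Eif4ebp2 they overlap in the Synpo-/- cultures alone.

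Among the elongation factors, Eef1a1 and Eef1a2 parted. Their coding sequences have 1386 and 1389 bases, and their exons 2493 and 2084 bases. Eef1a1 was at 1114, 1141, 1152, 1181 and 1350.0 CPM in the non-lesioned Synpo+/+ inputs and at 674, 846, 877, 882 and 901 CPM in the coIPs (adjusted p = 4.99e-04, log2 fold change -0.46 with SE 0.09). Eef1a2 was at 3.10, 3.42, 3.42, 3.65 and 3.88 CPM in the inputs and 4.29, 4.84, 5.32, 5.58 and 5.81 CPM in the coIPs (adjusted p = 0.00412, log2 fold change 0.61 with SE 0.16). Both genes separated input from coIP without overlap, in opposite directions. With the length trend removed Eef1a1 was no longer called (log2 fold change -0.12, adjusted p = 0.203), and with length and GC trends removed its direction turned (log2 fold change 0.02, adjusted p = 0.807). In the Synpo-/- libraries Eef1a2 was at 3.5 and 4.60 CPM in the inputs and 5.17 and 8.66 CPM in the coIPs (adjusted p = 0.0497, log2 fold change 0.80 with SE 0.29), and Eef1a1 was not called (log2 fold change -0.27, adjusted p = 0.169). Eef1a2 is a low-level member here, and its GC content (60.6% of exon bases) is above that of Eef1a1 (45.4%). With length and GC trends removed Eef1a2 kept its call in non-lesioned Synpo+/+ cultures. It lost the call in lesioned Synpo+/+ and in Synpo-/- cultures.

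The balance within the pair was also compared sample by sample. The mean log2 ratio of Eef1a1 to Eef1a2 per kilobase was 8.15 ± 0.15 (SD) in the non-lesioned Synpo+/+ inputs and 7.08 ± 0.30 in the coIPs, a difference of -1.07. In lesioned Synpo+/+ cultures the difference was -1.23, and in Synpo-/- cultures -1.05. Ratios of input and coIP did not overlap in any of the 3 sets. The two-sided exact permutation test gave p = 0.00794 in both Synpo+/+ sets, the smallest it can give with 5 against 5, and p = 0.333 with 2 against 2, again the smallest. This ratio test was chosen after the values were seen and was run for 4 pairs in 12 comparisons, 48 tests in all. After Benjamini-Hochberg adjustment over the 48 exact permutation tests the smallest p was 0.0653, so none passed. The other 3 pairs had overlapping ratios of input and coIP in both Synpo+/+ sets.

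Eef2, the translocase of elongation, was at 375, 398, 404, 419 and 434 CPM in the non-lesioned Synpo+/+ inputs and at 565, 571, 619, 645 and 680.3 CPM in the coIPs, again without overlap (adjusted p = 9.74e-06, log2 fold change 0.65 with SE 0.08). Eef2k, the calcium/calmodulin-dependent kinase that inhibits eEF2, was higher in both Synpo+/+ coIPs (log2 fold change 0.41 and 0.46) and not called in Synpo-/- cultures (log2 fold change 0.41, adjusted p = 0.0749). With the length trend removed it was not called in either Synpo+/+ comparison (log2 fold change 0.18, adjusted p = 0.173 and log2 fold change 0.24, adjusted p = 0.0776), nor with length and GC trends removed. Eif5a fell from 581, 653, 656, 695 and 724 CPM in the inputs to 238, 241, 278, 316 and 378 CPM in the coIPs (adjusted p = 2.44e-06, log2 fold change -1.14 with SE 0.12), and its paralog Eif5a2 fell by a similar amount (log2 fold change -0.94). The subunits of the eEF1B exchange complex were lower as well in non-lesioned Synpo+/+ cultures: of the 8 elongation factors, Eef1a2 and Eef2 rose and the other 6 fell.

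Of the 4 eIF2 alpha kinases, Eif2ak3 (PERK, activated by unfolded protein in the endoplasmic reticulum) and Eif2ak4 (GCN2, activated by uncharged tRNA) were higher in all 3 coIP comparisons, and no kinase was lower. Eif2ak3 was at 7.77, 7.99, 8.20, 8.72 and 9.79 CPM in the non-lesioned Synpo+/+ inputs and 13.4, 13.7, 14.5, 16.6 and 18.9 CPM in the coIPs (adjusted p = 3.94e-05, log2 fold change 0.91 with SE 0.13). In Synpo-/- cultures its log2 fold change was 0.89, and that of Eif2ak4 was 0.94. The genes of their substrate complex, eIF2, went the other way in non-lesioned Synpo+/+ cultures. The alpha and beta subunits (Eif2s1 -1.06, Eif2s2 -0.91) and Eif2s3x were called lower. Of the 12 start-codon factors, which include eIF2, 9 were lower and 1 was higher (Eif5b, the GTPase of subunit joining, 0.35). Eif1 (-0.62), Eif1b (-0.68) and the X-linked Eif1ax (-1.06) were among the lower ones. Of the 5 eIF2B subunits 4 were lower and the catalytic Eif2b5 was higher (0.33), with Eif2b1 lowest (-1.05). These are log2 fold changes of coIP over input. Members named here and in the next paragraphs outside the naming rule, such as Eif2s1, Eif2b5 and Eif5b, complete a complex and were chosen after their values were seen.

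The 14 eIF3 subunits split in the same comparison into 3 higher and 7 lower. The 3 that rose were Eif3a (0.66), Eif3b (0.41) and Eif3c (0.42), the large core subunits. Eif3a was at 276, 287, 296, 307 and 314 CPM in the inputs and 415, 425, 456, 479 and 489 CPM in the coIPs. Eif3g, Eif3k, Eif3h and Eif3e had log2 fold changes from -1.05 to -0.79. In Synpo-/- cultures 4 subunits were higher and 5 lower, with Eif3f higher there alone by its call (log2 fold change 0.55 against -0.09 in non-lesioned Synpo+/+ cultures). For Eif3f the difference between genotypes did not pass (adjusted p = 0.526, log2 fold change -0.68 with SE 0.22). Eef1e1, a scaffold protein of the multi-synthetase complex, fell furthest of all members in non-lesioned Synpo+/+ cultures, from 88.0, 88.7, 90.4, 93.2 and 117 CPM to 27.5, 32, 34.5, 37.1 and 42.4 CPM (adjusted p = 4.56e-07, log2 fold change -1.41 with SE 0.12).

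The 3 coIP comparisons share no libraries. A call in the same direction in all 3 was made for 11 members that were higher and 27 that were lower, and no member was called in opposite directions in Synpo+/+ and Synpo-/- cultures. Of all genes 55%, 58.3% and 31.4% were called in these comparisons. The share of all genes called alike in all 3 was not counted. The 11 were Eif4g1, Eif4g3, Eif3a, Eif3b, Eif3c, Eif5b, Eif2b5, Eif2ak3, Eif2ak4, Eef1a2 and Eef2. With the length trend removed Eif5b lost its call in all 3 comparisons, and Eif3a and Eif4g3 lost theirs in Synpo-/- cultures. Both Synpo+/+ comparisons but not Synpo-/- called Eef2k and Eif4ebp2 higher and 10 members lower, Eef1a1 and Eif4a2 among them. The share of all genes with that pattern was not counted either. The Synpo-/- comparison rests on 2 against 2 libraries: without replicate 1 of its inputs 25 members were called, and without replicate 2 of its inputs 26.

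Tests of the difference itself, with coIP and input not paired, found no member that differed between genotypes or with the lesion. For the genotype (Synpo+/+ minus Synpo-/-, coIP over input, non-lesioned Synpo+/+ cultures used) 0 of 66 members passed in edgeR, and 0% of all genes were called. An unadjusted p under 0.05 was found for 12 of 66 members and 1511 of 20621 genes. DESeq2 called 0 members and 0.242% of all genes. With the replicate number as a block 1 member passed: Eif3g, an RNA-binding eIF3 subunit, was lower (log2 fold change -0.67, adjusted p = 0.0458), and 0.296% of all genes were then called. For the lesion (lesioned minus non-lesioned, Synpo+/+) 0 members passed in edgeR and in DESeq2, and 0% of all genes were called in either. In edgeR 0 of 66 members and 434 of 19581 genes had an unadjusted p under 0.05. Since the lesion state of the Synpo-/- coIP cultures was not given, genotype and lesion state cannot be told apart there.

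Members that rose in the coIP had longer coding sequences than members that fell. Across the 66 members, Spearman's rho between the log2 fold change and the coding length was 0.759 in non-lesioned Synpo+/+, 0.736 in lesioned Synpo+/+ and 0.771 in Synpo-/- cultures, a description across genes that share the same libraries. With exon length rho was 0.369, 0.407 and 0.284, and with GC content 0.267, 0.309 and 0.262. The median coding length was 2574 bases for the 15 higher members and 849 bases for the 38 lower ones in non-lesioned Synpo+/+ cultures, and 3037.5 and 739.5 bases in Synpo-/- cultures. The coding sequence has 4800 bases in Eif4g1, which was higher, and 651 bases in Eif4e, which was lower. Eif4ebp2 (360 bases) was higher in Synpo+/+ cultures and is short. When the trend with exon length over all genes was removed, 13 members were higher and 34 lower in non-lesioned Synpo+/+ cultures, with 12 and 31 of the original calls kept, and 49.4% of all genes were called. In Synpo-/- cultures 9 and 22 were called, with 9 and 20 of the original calls kept, and 28.1% of all genes were called. Eef1a1, Eif1 and Eif1b were among the members no longer called lower after that correction in both Synpo+/+ comparisons. With trends in length and GC both removed, the log2 fold change of Eef1a1 in non-lesioned Synpo+/+ cultures was 0.022 and not called. What the length relation comes from was not tested.

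**Figure D3:**
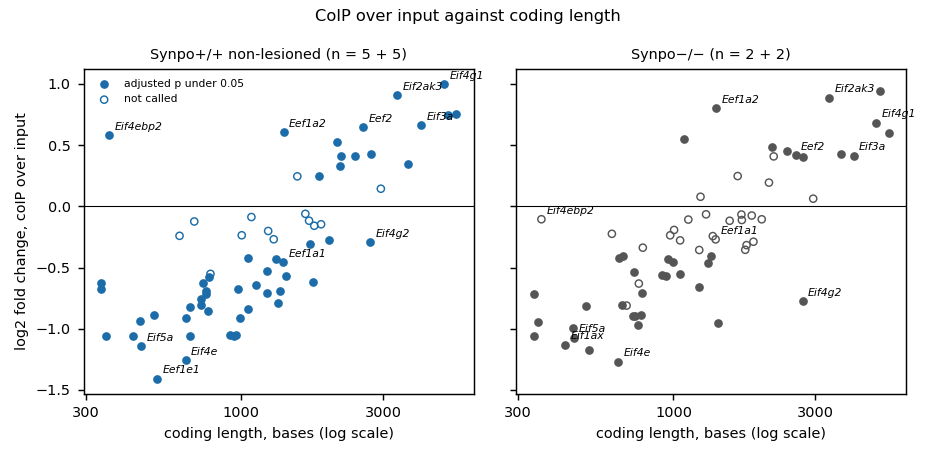
Log2 fold change of coIP over input (y axis) against coding length in bases (x axis, log scale) for the 66 tested members in non-lesioned Synpo+/+ and Synpo-/- cultures, with filled points for called members. Short members lie mostly below 0 and long members mostly above it in both panels, with Spearman's rho of 0.759 and 0.771.

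Cell type markers were also called in the coIP comparisons. Of 10 microglial markers 5 were lower in the non-lesioned Synpo+/+ coIP, 9 in the lesioned one and 6 in Synpo-/- cultures, and none was higher. Of all genes 55%, 58.3% and 31.4% were called in these comparisons in either direction, and 25.5%, 27.8% and 16.4% were lower. The summed level of the microglial markers was 687 to 1196 CPM in the non-lesioned Synpo+/+ inputs and 457 to 864 CPM in the coIPs. Of 7 neuronal markers 2 were higher and 1 lower in non-lesioned Synpo+/+ cultures, and their summed level was 7567 to 9436 CPM in the inputs and 4723 to 5954 CPM in the coIPs. In that comparison 3 of 7 astrocyte, 2 of 2 CA1 and subiculum and 1 of 3 endothelial markers tested were higher and 0 lower. Of 4 dentate granule cell markers 1 was lower, and of 4 CA3 markers 1 was higher and 1 lower. Of 5 interneuron markers 1 was higher and 2 lower, and 0 of 7 oligodendrocyte markers were called. No microglial or neuronal marker was at 0. Their part in the members' differences was not tested.

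Of 32 other genes of the pathway (mTORC1, release, recycling and eIF2 stress-response genes), 9 were higher and 13 lower in the non-lesioned Synpo+/+ coIP, 8 and 13 in the lesioned one, and 7 and 10 in Synpo-/- cultures. Of all genes 55%, 58.3% and 31.4% were called there in either direction. Genes around mTORC1, the kinase complex that phosphorylates the 4E-BPs, went both ways in non-lesioned Synpo+/+ cultures. Mtor (log2 fold change 1.04), its partner Rptor (1.14), the inhibitory Tsc1 (0.95) and Tsc2 (1.10) and the S6 kinase gene Rps6kb2 (0.65) were higher. The complex member Mlst8 (-0.36), the inhibitor Akt1s1 (-0.32) and the S6 kinase gene Rps6kb1 (-0.45) were lower. The re-initiation factors Denr (-1.22) and Mcts1 (-1.21) and the stress transcription factors Atf4 (-1.14) and Ddit3 (-1.28) were lower. These 12 genes were chosen after their values were seen. Of 10 members whose mRNAs are known to start with a terminal oligopyrimidine (TOP) motif, a target of mTORC1 control, 3 were higher and 6 lower in non-lesioned Synpo+/+, 2 and 6 in lesioned Synpo+/+ and 3 and 4 in Synpo-/- cultures, where 55%, 58.3% and 31.4% of all genes were called.

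The second question was how the factor mRNAs responded to the loss of the entorhinal input. In lesioned Synpo+/+ cultures the members leaned upward in both regions, and no member was called lower. In CA3, 4 of 68 members were higher, where 1.78% of all genes were called, and the median log2 fold change was 0.31 against -0.01 for all genes. In the DG, 17 of 68 were higher, where 12.2% of all genes were called, with a median of 0.29 for the members and of almost 0 for all genes. In Synpo-/- CA3 edgeR called 0 members and 0.077% of all genes, and DESeq2 called 0 members and 0.39% of all genes. There 3 of 66 members and 1510 of 20772 genes had an unadjusted p under 0.05 in edgeR. In Synpo-/- DG 1 member was higher, a share below the 8.53% of all genes called. The medians in Synpo-/- cultures were 0.00 in CA3 and 0.05 in the DG. With the length trend removed the members' median in Synpo+/+ cultures fell to 0.12 in CA3, with 20 of 68 below 0, and to 0.10 in the DG, with 24 of 68 below 0.

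**Figure D4:**
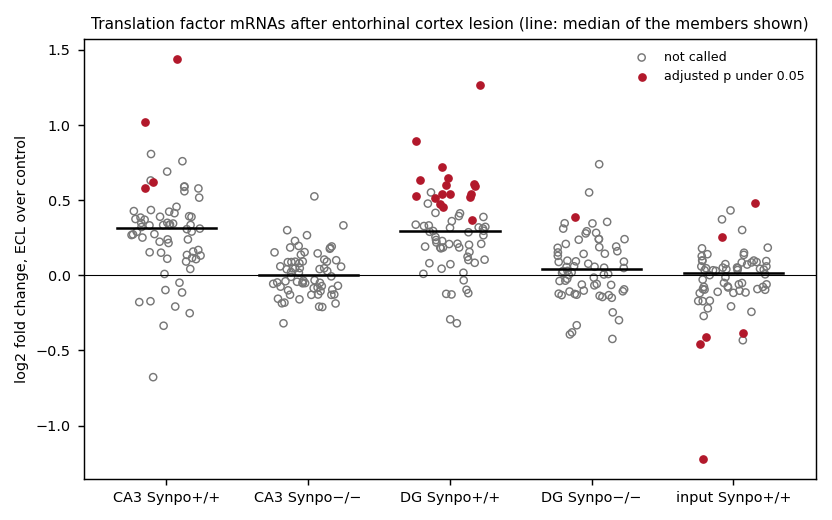
Log2 fold change of lesioned over non-lesioned (y axis) for the 66 members tested in all comparisons, in Synpo+/+ CA3 and DG, Synpo-/- CA3 and DG, and Synpo+/+ inputs; filled points passed an adjusted p of 0.05 and lines are medians. Most points lie above 0 in Synpo+/+ CA3 and DG, where the median of all 68 tested members was 0.31 and 0.29, and the median lines lie close to 0 elsewhere.

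Eif5a was the member called in both Synpo+/+ regions. In CA3 it was at 97.8 and 109 CPM in the 2 non-lesioned libraries and at 251, 294 and 384 CPM in the 3 lesioned ones (adjusted p = 0.0149, log2 fold change 1.44 with SE 0.16). In the DG it was at 78.4, 81.6, 104 and 122 CPM in the non-lesioned libraries and had a lowest of 109, a median of 155 and a highest of 336 CPM in the 7 lesioned ones (adjusted p = 0.0282, log2 fold change 0.90 with SE 0.24). Without replicate 5 of the lesioned group, which held the highest value, it was still called in the DG (log2 fold change 0.69, adjusted p = 0.0156). With the length trend removed it kept its call in CA3 and lost it in the DG. The groups were apart in CA3 and overlapped in the DG. In Synpo-/- CA3 Eif5a had a lowest of 131, a median of 176 and a highest of 254 CPM without the lesion and a lowest of 113, a median of 207 and a highest of 216 CPM with it (adjusted p = 0.972, log2 fold change 0.05 with SE 0.16). Non-lesioned Synpo-/- CA3 libraries were thus already above both non-lesioned Synpo+/+ CA3 libraries. For Eif5a the difference of the lesion response between genotypes in CA3 did not pass in edgeR (adjusted p = 0.117, log2 fold change 1.43 with SE 0.31). DESeq2 called it (log2 fold change 1.39, adjusted p = 0.00599). The mean log2 ratio of Eif5a to Eif5a2 per kilobase went from 2.27 to 3.80 in Synpo+/+ CA3 and from 2.60 to 3.58 in Synpo+/+ DG (exact permutation p = 0.100 and 0.00909, adjusted 0.240 and 0.0653 over the 48 ratio tests). With 3 against 2 libraries 0.1 is the smallest p this test can give.

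The other 3 members called in Synpo+/+ CA3 were Eif1 (adjusted p = 0.0398, log2 fold change 0.62 with SE 0.12), Eif4ebp1 (adjusted p = 0.0412, log2 fold change 1.02 with SE 0.20) and Eif1b (adjusted p = 0.0468, log2 fold change 0.58 with SE 0.12). Eif4ebp1, whose transcription is raised in the ATF4 stress response, was at 7.72 and 11.5 CPM in the non-lesioned libraries and at 19.5, 21.0 and 24.4 CPM in the lesioned ones. Neither Eif1, Eif1b nor Eif4ebp1 overlapped between the groups. Each call rests on few libraries: without replicate 1 or 2 of the lesioned group 0 members were called, without replicate 3 it was 1, and without replicate 1 of the non-lesioned group 2. With the trend in exon length removed, which shifted the all-gene median by -0.13 on the log2 scale, Eif5a alone of the members was called. Of all genes 0.43% were called then.

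In Synpo+/+ DG the 17 higher members came from 7 role groups. None was a start-codon factor or an eIF4E-binding repressor. The smallest p belonged to Eef1d, the exchange factor that reloads eEF1A, with 38.5, 43.8, 47.4 and 48.9 CPM in the non-lesioned libraries and a lowest of 65.3, a median of 68.8 and a highest of 94.5 CPM in the lesioned ones (adjusted p = 0.00248, log2 fold change 0.63 with SE 0.11). Eif2ak2 (PKR, the eIF2 alpha kinase activated by double-stranded RNA) was at 21.7, 24.8, 28.0 and 28.5 CPM and had a lowest of 34.1, a median of 41.3 and a highest of 54.3 CPM after the lesion (adjusted p = 0.00956, log2 fold change 0.60 with SE 0.13). Neither gene overlapped between the groups. Next by p were Eif4e2 (0.52), Eif4a3, the helicase of the exon junction complex (0.60), and Eef1akmt4, a lysine methyltransferase of eEF1A (1.27), as log2 fold changes. Eef1akmt4 is a low-level member, with all libraries of both groups between 0.641 and 2.93 CPM. Eif4a1 was also called (adjusted p = 0.0272, log2 fold change 0.52 with SE 0.14), and Eif4a2 was not (log2 fold change 0.12, adjusted p = 0.695). Without replicate 5 of the lesioned group, the library with the CA3-like Prox1 level, 19 members and 13.8% of all genes were called. Among them were Eef1d (log2 fold change 0.61, adjusted p = 0.00105), Eif2ak2 (log2 fold change 0.56, adjusted p = 0.00608) and Eif4a1 (log2 fold change 0.45, adjusted p = 0.0211).

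The number of calls moved with single libraries: without replicates 2, 3 and 4 of the non-lesioned DG it was 6, 7 and 3. With the length trend removed, which shifted the all-gene median by -0.14 on the log2 scale, 8 of the 17 and 9.81% of all genes were called. Eef1d, Eif2ak2, Eif4e2, Eif4a3 and Eef1akmt4 were among the 8, and Eif5a and Eif4a1 were not. All 10 microglial markers were higher in the lesioned Synpo+/+ DG (summed level 423 to 602 CPM without and 1131 to 1412 CPM with the lesion), as were 4 of 7 astrocyte markers (3930 to 4682 CPM and 6457 to 8200 CPM). In Synpo+/+ CA3, 1 of 10 microglial and 0 of 7 astrocyte markers were called. Microglial markers were higher after the lesion in Synpo-/- DG too, 9 of 10, where 1 member was called. No microglial or astrocyte marker was at 0, and their part in the members' differences was not tested.

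That member was Eif4a1, the ubiquitous eIF4A helicase: it had a lowest of 95.3, a median of 114 and a highest of 141 CPM in the 7 non-lesioned Synpo-/- DG libraries and 139, 143, 162 and 165 CPM in the 4 lesioned ones (adjusted p = 0.0173, log2 fold change 0.39 with SE 0.10). The groups overlapped slightly. The ratio of Eif4a1 to Eif4a2 did not overlap, with a mean log2 ratio of -2.43 ± 0.23 without and -1.70 ± 0.27 with the lesion (exact permutation p = 0.00303, adjusted 0.0653). In Synpo+/+ DG the same ratio went from -2.23 to -1.84 and overlapped (exact permutation p = 0.0364, adjusted 0.147). In every group Eif4a2, the paralog that is prominent in brain, stood above Eif4a1 per kilobase.

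The tests of the difference of the lesion response between genotypes gave 0 member calls in edgeR in both regions. In CA3 edgeR called 0% of all genes, and 22 of 68 members and 4589 of 26821 genes had an unadjusted p under 0.05. DESeq2 called 1 member there (Eif5a, above) and 1.17% of all genes. In the DG edgeR called 0.00381% of all genes, and 16 of 68 members and 2730 of 26245 genes had an unadjusted p under 0.05. DESeq2 called 0 members and 0.00762% of all genes there. Without replicate 5 of the lesioned Synpo+/+ DG edgeR called 0 members and 0.00385% of all genes. A lesion response present in Synpo+/+ and not called in Synpo-/- cultures is therefore not shown to differ between them.

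**Figure D5:**
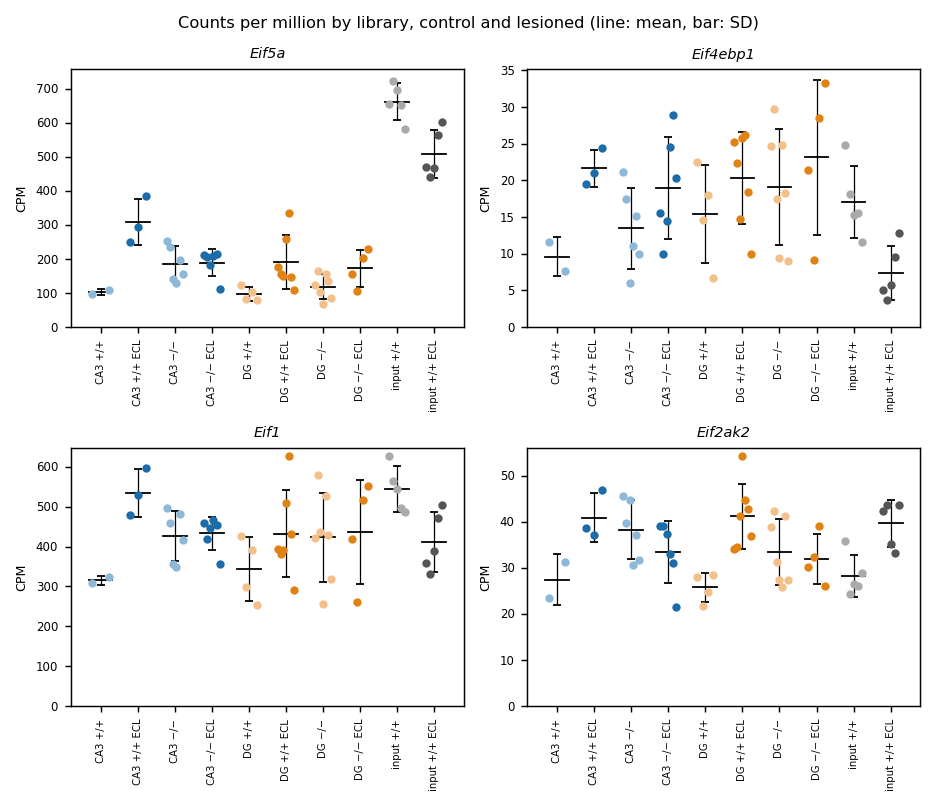
CPM (y axis) of Eif5a, Eif4ebp1, Eif1 and Eif2ak2 in every regional library and in the Synpo+/+ inputs, by group; points are libraries, lines are means and bars are SD. Eif5a and Eif4ebp1 are higher after the lesion in Synpo+/+ CA3 and lower after it in the inputs.

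The input lysates of the coIP offer a second look at the lesion in whole Synpo+/+ cultures, in other libraries. There 2 members were higher and 4 lower, and 5.61% of all genes were called. Eif2ak2 was again higher, at 24.2, 26.0, 26.6, 28.8 and 35.8 CPM without and 33.2, 35.2, 42.4, 43.7 and 43.7 CPM with the lesion (adjusted p = 0.0244, log2 fold change 0.48 with SE 0.11), with an overlap of the groups. Eef1d was again higher, at 61.1, 61.5, 62.3, 63.2 and 66.6 CPM without and 71.0, 72.7, 73.6, 79.0 and 80.1 CPM with the lesion, with no overlap (adjusted p = 0.0405, log2 fold change 0.25 with SE 0.07). Eif5a, Eif4ebp1 and Eif1 went in the direction opposite to CA3. The difference between the experiments was not tested. Eif4ebp1 was at 11.6, 15.3, 15.6, 18.1 and 24.8 CPM without and 3.72, 5.05, 5.77, 9.56 and 12.8 CPM with the lesion (adjusted p = 0.0247, log2 fold change -1.22 with SE 0.29). Eif5a was at 581, 653, 656, 695 and 724 CPM without and 440.4, 467, 469.8, 563 and 602 CPM with it (adjusted p = 0.0310, log2 fold change -0.39 with SE 0.10), and Eif1 had a log2 fold change of -0.41 (adjusted p = 0.0483). Eif2ak1 (HRI, the heme-regulated eIF2 alpha kinase) was lower too (adjusted p = 0.0195, log2 fold change -0.45 with SE 0.10). Calls ran from 0 to 6 as single libraries were left out: 0 without replicate 2 of either group, 1 without replicate 1 or 3 of the lesioned inputs, and 2 without replicate 3 or 4 of the non-lesioned ones. Of 10 microglial markers 4 were higher in the lesioned inputs (summed level 687 to 1196 CPM and 1159 to 1698 CPM), and their part was not tested. The inputs hold the whole culture, and regional libraries hold 1 area. The time after the lesion was not given for the inputs and was 3 days for the regional libraries.

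Among the 32 other pathway genes the lesion called 1 in Synpo+/+ CA3, 1 in Synpo+/+ DG, 0 in Synpo-/- CA3, 1 in Synpo-/- DG and 4 in the inputs. Of all genes 1.78%, 12.2%, 0.077%, 8.53% and 5.61% were called in these comparisons. Rheb, the GTPase that activates mTORC1, was higher in Synpo+/+ CA3 (log2 fold change 1.06) and lower in the lesioned inputs (-1.36), the same pair of directions as Eif5a and Eif4ebp1. Etf1, the release factor eRF1, was higher in Synpo+/+ DG (0.38), and Ddit3 was lower in Synpo-/- DG (-0.63). In the inputs Dhps and Dohh, the enzymes that make the hypusine residue of eIF5A, were lower together with Eif5a (log2 fold change -0.85 and -0.93). These genes, with Eefsec (-0.53 in the inputs), are all that were called in these 5 comparisons.

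The third comparison set the DG against CA3. In non-lesioned Synpo+/+ cultures edgeR called 0 members and 5.39% of all genes, and DESeq2 called 2 members and 6.91% of all genes. There 7 of 68 members and 4521 of 25656 genes had an unadjusted p under 0.05 in edgeR. In non-lesioned Synpo-/- cultures 1 member was higher in the DG and 9 were lower, a smaller share than the 25.5% of all genes called. Eif4e3, a cap-binding homolog of eIF4E, had a lowest of 17, a median of 18.7 and a highest of 21.6 CPM in CA3 and a lowest of 12.2, a median of 13.4 and a highest of 19.0 CPM in the DG (adjusted p = 0.00673, log2 fold change -0.37 with SE 0.10). Eif5a had a lowest of 131, a median of 176 and a highest of 254 CPM in CA3 and a lowest of 66.8, a median of 123 and a highest of 163 CPM in the DG (adjusted p = 0.0146, log2 fold change -0.60 with SE 0.17). Both genes overlapped between the regions and were lower in most DG libraries. Eif4h, a helper of eIF4A, Eif2b2 and Eif3g were lower too (-0.29, -0.43 and -0.29 as log2 fold changes), and Eef1g, a subunit of eEF1B, was higher (0.27).

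In lesioned Synpo-/- cultures 1 member was higher in the DG and 3 lower, a smaller share than the 13.6% of all genes called. Eif4e3 was at 11.2, 11.7, 13.5 and 15 CPM in the 4 DG libraries and had a lowest of 16.3, a median of 18.2 and a highest of 19.4 CPM in the 6 CA3 libraries, with no overlap (adjusted p = 0.00913, log2 fold change -0.48 with SE 0.11). Eif5a2 (-0.54) and Eif1ax (-0.43) were lower as well and Eef2kmt, the eEF2 methyltransferase, was higher (0.53), as log2 fold changes. In lesioned Synpo+/+ cultures edgeR called 0 members and 2.05% of all genes with all libraries. There 11 of 68 members and 4698 of 24029 genes had an unadjusted p under 0.05. DESeq2 called 1 member and 6.32% of all genes. Without replicate 5 of the DG, the library with the CA3-like Prox1 level, 16 members were lower in the DG and 19.8% of all genes were called. Among the 16 were Eif4e3, Eif5a (log2 fold change -0.88, adjusted p = 0.00181), Eif5a2 (log2 fold change -0.57, adjusted p = 0.00328), Eif1 and Eif1b. Of the 9 members lower in non-lesioned Synpo-/- DG, 3 were also among these 16 (Eif4e3, Eif5a and Eif2s1). Among the 32 other pathway genes 4 were higher and 8 lower in non-lesioned Synpo-/- DG, 1 and 3 in lesioned Synpo-/- DG, and in Synpo+/+ cultures 1 was called in each state (Mcts1 -0.75 without and Trib3 1.12 with the lesion). Of all genes 25.5% and 13.6% were called in these Synpo-/- comparisons, and 5.39% and 2.05% in the Synpo+/+ ones.

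The last comparison set Synpo-/- against Synpo+/+ cultures, and edgeR called 0 members in any of the 4. In non-lesioned CA3 25 of 67 members and 3959 of 24203 genes had an unadjusted p under 0.05, and the members' median log2 fold change was 0.22. There edgeR called 0.00413% of all genes, and DESeq2 called 5 members and 2.89% of all genes. In non-lesioned DG 17 of 68 members and 3746 of 24143 genes had an unadjusted p under 0.05, and the members' median was 0.19. There edgeR called 0.0166% of all genes, and DESeq2 called 3 members and 0.973% of all genes. In lesioned CA3 7 of 66 members and 1383 of 22447 genes had an unadjusted p under 0.05. There edgeR called 0.00891% of all genes, and DESeq2 called 0 members and 0.0936% of all genes. In lesioned DG 1 of 68 members and 859 of 24100 genes had an unadjusted p under 0.05. There edgeR called 0.0166% of all genes, and DESeq2 called 0 members and 0.0456% of all genes. Without replicate 5 of the lesioned Synpo+/+ DG edgeR again called 0 members and 0.0375% of all genes, and the members' median turned from -0.036 to 0.026. The non-lesioned comparisons use the same Synpo+/+ control libraries as the Synpo+/+ lesion comparisons, 2 in CA3 and 4 in the DG, so the upward lean of the members in both is not independent. Eif5a in non-lesioned CA3 had a log2 fold change of 0.75 (adjusted p = 0.137), and in the non-lesioned DG of 0.19 (adjusted p = 0.614).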

How the data were processed

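Poly(A) RNA was sequenced from 63 mouse libraries, 39 regional and 24 coIP or input. Per the submitters' processing notes, the authors trimmed reads with cutadapt 3.5, aligned them with STAR 2.7.8a to mm10/GRCm38 and counted them per gene with featureCounts 2.0.1; versions for the Synpo-/- coIP and input libraries are not given in the sources used here. The deposited values are raw counts per gene symbol (55291), with no normalization, counted without strand.

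Groups came from the sample labels. Each comparison was fitted on its own groups with edgeR 4.0.16 in R 4.3.3 (filterByExpr, TMM scaling, quasi-likelihood test), with the Benjamini-Hochberg adjustment run across every gene of the fit. A gene was called at an adjusted p under 0.05. Levels are CPM with TMM scaling. Precision is lowest for low-level members; total counts by library ran from 11601154 to 53682143. P-values measure the spread between these samples, which for regional libraries are single cultures and may share animals. The libraries' sex was not used.

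Genes named are the members called in a comparison, up to 5 per direction by smallest p, and 13 members always (the Eef1a, Eif4a, Eif1 and Eif5a pairs, the 3 Eif4ebp genes, Eef2 and Eef2k). The members, lists and tests were chosen with earlier results of these data known.

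Replicate numbers were taken to pair coIP and input, which per the study come from the same lysate. Deviations of same-numbered samples correlated at 0.189 to 0.442 in 5 non-lesioned and 0.105 to 0.381 in 5 lesioned Synpo+/+ pairs. The same-numbered input was the best match in 3 of the 5 non-lesioned and 4 of the 5 lesioned pairs. For both Synpo-/- pairs the correlation was 0.0456, which is a single value, since 2 libraries deviate equally from their mean. Alternatives were DESeq2 1.42.0, RLE scaling, no filter on low counts, a limit of 300 on the mean normalized count, a replicate block, removal of trends in exon length and GC content (lowess, span 0.3), and leaving out single libraries. On simulated data with 200 genes changed 4-fold, the 20 edgeR fits called 186 to 200 of them and at most 19 unchanged genes among 17830 to 25139 tested, and 3 DESeq2 fits called 198 to 200 and at most 40. The deposited GENCODE annotation gave lengths and coding sequences.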

Additional observations from a re-analysis of the deposited data

Results flagged for a closer look

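For the 12 always-named members that had counts throughout, each group of 4 to 10 libraries was searched for a library apart from the others by Dixon's criterion. Of 120 groups, 9 had one, and chance gives about 1 in 20. Eef1a1 was at 1350 CPM in replicate 1 of the non-lesioned Synpo+/+ inputs, above the others, and at 674 CPM in replicate 3 of the non-lesioned Synpo+/+ coIPs, below the others. In replicate 6 of the lesioned Synpo-/- CA3, 3 genes were low: Eif4a1 at 86.3 CPM, Eif4a2 at 420.3 CPM and Eif5a at 113 CPM. Eef2k was at 15 CPM in replicate 1 of that group. Eif4a1 was low in replicate 2 of the non-lesioned Synpo+/+ DG at 78.8 CPM. Eif1b was high in replicate 3 of the non-lesioned Synpo+/+ inputs at 120.4 CPM. Eef2 was at 244 CPM in replicate 1 of the lesioned Synpo-/- DG. The cause was not tested for any of these.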

How the results depend on the processing

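Counts of called members in the coIP comparisons stayed within 1.5 times the reported counts under DESeq2, other scaling, no low-count filter, the replicate block and removal of length and GC trends; without single Synpo-/- libraries they ran from 25 to 36 against 40. The replicate block took same-numbered coIP and input as 1 lysate. With it 56, 56 and 40 members were called in the non-lesioned Synpo+/+, lesioned Synpo+/+ and Synpo-/- coIP comparisons. Of all genes 62.5%, 62.4% and 35.8% were called there. In coIP over input 1 member then differed between genotypes. The block changed no other call count of the coIP by over 1.5 times. Regional libraries and the lesion in the inputs share only a number; the block there gave 9 members (3.92% of all genes) for the lesion in Synpo+/+ CA3, 3 (3.75%) for the lesion in the inputs, 16 (28.3%) for DG against CA3 in non-lesioned Synpo-/-, 25 (20.8%) in lesioned Synpo+/+ and 12 (18.9%) in lesioned Synpo-/- cultures, and 16 (9.22%) and 4 (1.35%) for genotype in non-lesioned and lesioned CA3.

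Percentages in this paragraph are the shares of all genes called. The lesion in Synpo+/+ CA3 gave 4 calls (1.78%). It gave 11 with DESeq2 (5.87%), 2 with RLE scaling (1.15%) and 14 without the filter (5.67%). With the length trend removed it gave 1 (0.43%), and in a fit over all 8 regional groups 0 (0.0229%). As single lesioned libraries were left out, 0 or 1 members were called. In Synpo+/+ DG the 17 calls (12.2%) became 8 with the length trend removed (9.81%) and 27 over all 8 groups (13.9%). They ran from 3 to 19 as libraries were left out. In Synpo-/- DG the 1 higher call (8.53%) became 2 higher and 1 lower (3) with DESeq2 (12.1%) and 0 without the filter (3.17%). It became 1 higher and 1 lower (2) with the length trend removed (8.91%) and 2 higher over all 8 groups (5.65%). With the block (2.84%) it became 1 lower, and Eif4a1 lost its call. Calls there ran from 0 to 2 as libraries were left out. The input lesion gave 0 to 6 as libraries were left out. The lesion-by-genotype test in CA3 gave 1 call with DESeq2 (1.17%) and 1 without the filter (0.31%). DG against CA3 in non-lesioned Synpo+/+ cultures gave 2 with DESeq2 (6.91%), 1 without the filter (3.61%) and 1 over all 8 groups (3.61%). It gave 0 to 3 there as single DG libraries were left out. In non-lesioned Synpo-/- cultures it gave 5 without the filter (8.63%). In lesioned Synpo+/+ cultures it gave 1 with DESeq2 (6.32%), 2 over all 8 groups (6.66%) and 0 to 16 as libraries were left out. In lesioned Synpo-/- cultures it gave 7 with DESeq2 (17.2%), 2 without the filter (5.38%) and 2 to 4 as libraries were left out. Genotype gave 5 with DESeq2 (2.89%) and 6 without the filter (2.05%) in non-lesioned CA3. It gave 3 with DESeq2 (0.973%) in non-lesioned DG, and 1 without the filter (0.0733%) in lesioned CA3. The cause of these shifts was not tested.

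Direction turned for 2 named members. Eef1a1 in the non-lesioned Synpo+/+ coIP was at a log2 fold change of 0.022 with length and GC trends removed. Eif1b in the lesioned Synpo+/+ coIP was at 0.12 with the length trend removed, also with the replicate block. Of 3304 values of single genes under an alternative, 3111 kept direction and side of the threshold, 132 lost the call, 58 gained it and 3 turned.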
